A study of Arabidopsis thaliana with 12 samples.

Results

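CML41 and AT4G32060 are 2 Arabidopsis thaliana genes for calcium-binding proteins, each measured by 1 feature of an array of 3439 features. They were found as the features whose platform annotation gives exactly 1 gene, that gene being AT3G50770 (CML41) or AT4G32060. Of the 3439 features, 692 had 1 gene and 1877 had no gene in the annotation. Of the 870 features with several genes, 0 held CML41 or AT4G32060. The pair was chosen because of the size of its difference in the comparison described here, so their values in it are given as a description, with no test.

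Plant cells carry signals as changes in free calcium, which proteins with EF-hand loops bind and pass on. Calmodulin-like proteins such as CML41 are sensors of this kind; in Arabidopsis CML41 is known to act at plasmodesmata, the channels between cells, where it promotes callose deposition during the response to bacterial flagellin. AT4G32060 encodes a mitochondrial protein that binds calcium and, in Arabidopsis, limits the entry of calcium into the matrix through the uniporter. CML41 lies on chromosome 3 with 1 RefSeq transcript, and AT4G32060 on chromosome 4 with 2 transcripts and 2 proteins, in the TAIR10.1 gene table.

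Total RNA came from 12 samples of 1 ecotype, Wassilevskija. The kn09 mutant gave 6 of them; the labels describe it as hypersensitive to proline and blocked in breaking proline down in mitochondria, and it was held for 48 h on MS medium with 100 mM proline. The other 6 were wild type, held for 48 h on MS medium with 100 mM glucose, so the carbon source and the genotype differed together and their parts in any difference cannot be told apart. The labels speak of treated roots, do not name the mutated gene or the number of plants behind a sample, and do not say that samples came from separate plants, so each p-value covers no more than the sample-to-sample spread seen here, possibly a technical one. In a whole-tissue sample a change in the share of cells that hold a transcript and a change of RNA per cell cannot be told apart.

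Values are the authors' intensities on a linear scale with an unnamed reference, running from 0 to a ceiling of 100. The sample medians ran from 0.164 to 0.196 in kn09 on proline and from 0.137 to 0.224 in wild type on glucose, and each kn09 sample held 317 to 475 features at 0 against 175 to 265 in wild type. In both groups the samples came in resembling pairs (numbers 1 with 2, 3 with 4, 5 with 6), with rank correlations of 0.838 to 0.944 inside these pairs and 0.782 to 0.874 between pairs of the same group. The pairs are a pattern in the values and are not named in the labels. Neither CML41 nor AT4G32060 stood at 0 or at the ceiling in any sample, and the number of samples limits the precision of what follows.

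CML41 was higher in every kn09 sample on proline than in any wild type sample on glucose. Its intensities were 1.54, 1.39, 1.12, 0.985, 1.89 and 1.83 in kn09 samples 1 to 6, against 0.307, 0.333, 0.171, 0.230, 0.100 and 0.0537 in wild type samples 1 to 6. The groups did not overlap, as in 9.28% of all features with kn09 on top: the lowest kn09 sample, number 4, lay 2.96-fold above the highest wild type sample, number 2. The mean was 1.46 ± 0.367 in kn09 and 0.199 ± 0.111 in wild type (SD, n = 6 each), a ratio of 7.33. On the normalized log2 scale, on which the samples were brought to 1 shared distribution, the difference was 3.12 ± 0.37 (SE from the limma fit). This SE and those given for other genes below take the samples as independent. They make no allowance for the resembling pairs, so they can be too small.

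AT4G32060 also had all of its kn09 values above all of its wild type values. Its intensities were 7.40, 6.52, 9.77, 9.32, 10.1 and 9.64 in kn09 samples 1 to 6, against 2.25, 2.27, 1.45, 1.68, 0.307 and 0.742 in wild type samples 1 to 6. The lowest kn09 sample, number 2, stood 2.87-fold above the highest wild type sample, which was again number 2. Means were 8.80 ± 1.47 in kn09 and 1.45 ± 0.796 in wild type (SD, n = 6 each), a ratio of 6.07. The normalized log2 difference was 2.73 ± 0.43 (SE from the same limma fit, with samples taken as independent). The intensities of CML41 and AT4G32060 come from different features and cannot be set against each other as levels of RNA.

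**Figure D1:**
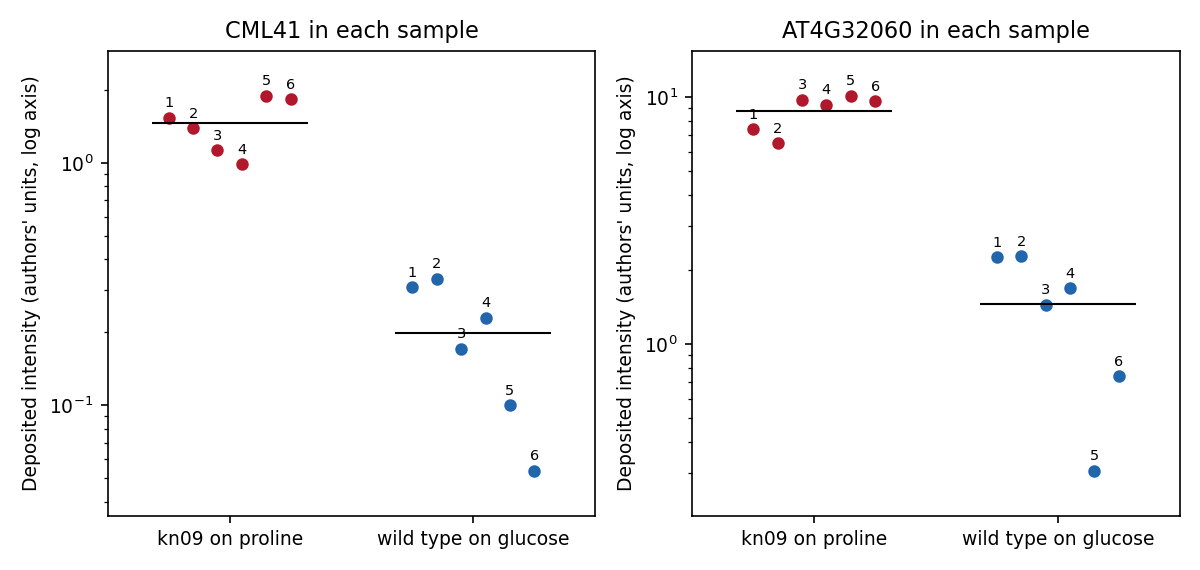
Deposited intensity of CML41 (left panel) and AT4G32060 (right panel) in each of the 12 samples, in the authors' units on a log axis, with the sample number beside each point and the group mean as a line. All 6 kn09 samples lie above all 6 wild type samples for both genes, and wild type samples 5 and 6 are the lowest.

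Groups without overlap were not rare on the array, while gaps of 2-fold or more were less common. Every kn09 sample lay above every wild type sample in 319 of the 3439 features, and 1.51% of all features had the lowest kn09 sample at least 2-fold above the highest wild type sample, as both of these genes did. In limma 27.7% of all features passed a Benjamini-Hochberg adjusted p of 0.05, 14.1% higher and 13.6% lower in kn09 on proline. That fit, with 954 features past the threshold, takes the samples as independent; 624 features passed with the resembling pairs as a random block and 213 on pair means (87 higher, 126 lower). By the size of the log2 difference CML41 stood in place 35 and AT4G32060 in place 59 from the top among all features, and in places 4 and 8 among the 692 single-gene features. Over all features the log2 difference had a median of -0.03 and quartiles of -0.84 and 0.74. Since the genes were picked from this comparison, these places and shares only locate them on the array.

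Relative to the mean, the spread of both genes was larger in the wild type. The SD of the deposited intensities was larger in kn09, 0.367 against 0.111 for CML41 and 1.47 against 0.796 for AT4G32060. CML41 had a coefficient of variation of 25.2% in kn09 on proline and 56.0% in wild type on glucose, and AT4G32060 of 16.7% in kn09 and 55.0% in wild type. From lowest to highest sample CML41 covered a 1.92-fold range in kn09 against 6.20-fold in wild type. For AT4G32060 the range was 1.55-fold in kn09 and 7.39-fold in wild type. The SD of the normalized log2 values was 0.34 in kn09 and 0.84 in wild type for CML41, and 0.24 in kn09 and 1.06 in wild type for AT4G32060. Over all features the median SD was 0.62 in kn09 and 0.67 in wild type, so the kn09 values of both genes were tighter and the wild type values wider than those of the median feature. Of all features 51.3% had the larger SD in wild type. The features were not matched for intensity. In kn09 the sample medians were 0.164 to 0.196, against means of 1.46 for CML41 and 8.80 for AT4G32060.

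Most of the wild type spread followed the sample pairs. Wild type samples 1 and 2 averaged 0.320 for CML41, samples 3 and 4 averaged 0.200, and samples 5 and 6 averaged 0.0769. For AT4G32060 the same wild type pairs averaged 2.26, 1.56 and 0.525. The highest of these pair means was 4.16 times the lowest for CML41 and 4.31 times for AT4G32060, while the members of a wild type pair differed by at most 1.86-fold for CML41 and 2.41-fold for AT4G32060, in both cases within samples 5 and 6. On the deposited intensities both genes thus had the wild type pairs in the same order, an order shared by 890 of the 3439 features (25.9%). Samples 5 and 6 were the lowest 2 of the wild type in 26.3% of all features, and samples 1 and 2 the highest 2 in 20.5%.

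In kn09 on proline the pairs lay closer together as ratios, and the genes did not share an order. CML41 averaged 1.46 in kn09 samples 1 and 2, 1.05 in samples 3 and 4, and 1.86 in samples 5 and 6. For AT4G32060 the kn09 pair means were 6.96, 9.54 and 9.89. CML41 was thus lowest in samples 3 and 4, where AT4G32060 was close to its highest values, and AT4G32060 was lowest in samples 1 and 2. Samples 5 and 6 were the highest 2 of kn09 for CML41, as in 15.8% of all features. The highest kn09 pair mean was 1.77 times the lowest for CML41 and 1.42 times for AT4G32060, against 1.14-fold as the widest gap inside a kn09 pair for either gene.

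The size of the difference therefore depended on the wild type samples it was taken against. The kn09 mean of CML41 was 4.57 times the mean of wild type samples 1 and 2, 7.28 times that of samples 3 and 4, and 19.0 times that of samples 5 and 6. For AT4G32060 the corresponding ratios were 3.89, 5.63 and 16.8. The ratio of 19.0 rests on low values, since CML41 stood at 0.100 in wild type sample 5 and 0.0537 in sample 6. Each of these values was below the median of its own sample. With wild type samples 5 and 6 left out, the normalized log2 difference was 2.65 for CML41 and 2.09 for AT4G32060, and with wild type samples 1 and 2 left out it was 3.64 for CML41 and 3.24 for AT4G32060. Wild type samples 5 and 6 also had the lowest medians of the wild type, 0.137 and 0.141, and wild type samples 1 and 2 had the highest mean rank correlation with the kn09 samples, 0.795, against 0.722 for samples 3 and 4 and 0.749 for samples 5 and 6. After normalization, which equalizes the medians, CML41 stood at -1.76, -1.71, -2.94, -2.39, -2.91 and -3.93 in wild type samples 1 to 6, with sample 3 slightly below sample 5. AT4G32060 stood at 1.30, 1.29, 0.45, 0.73, -1.46 and -0.31 in wild type samples 1 to 6, with samples 5 and 6 the lowest. The part of these sample differences in the result was not tested.

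**Figure D2:**
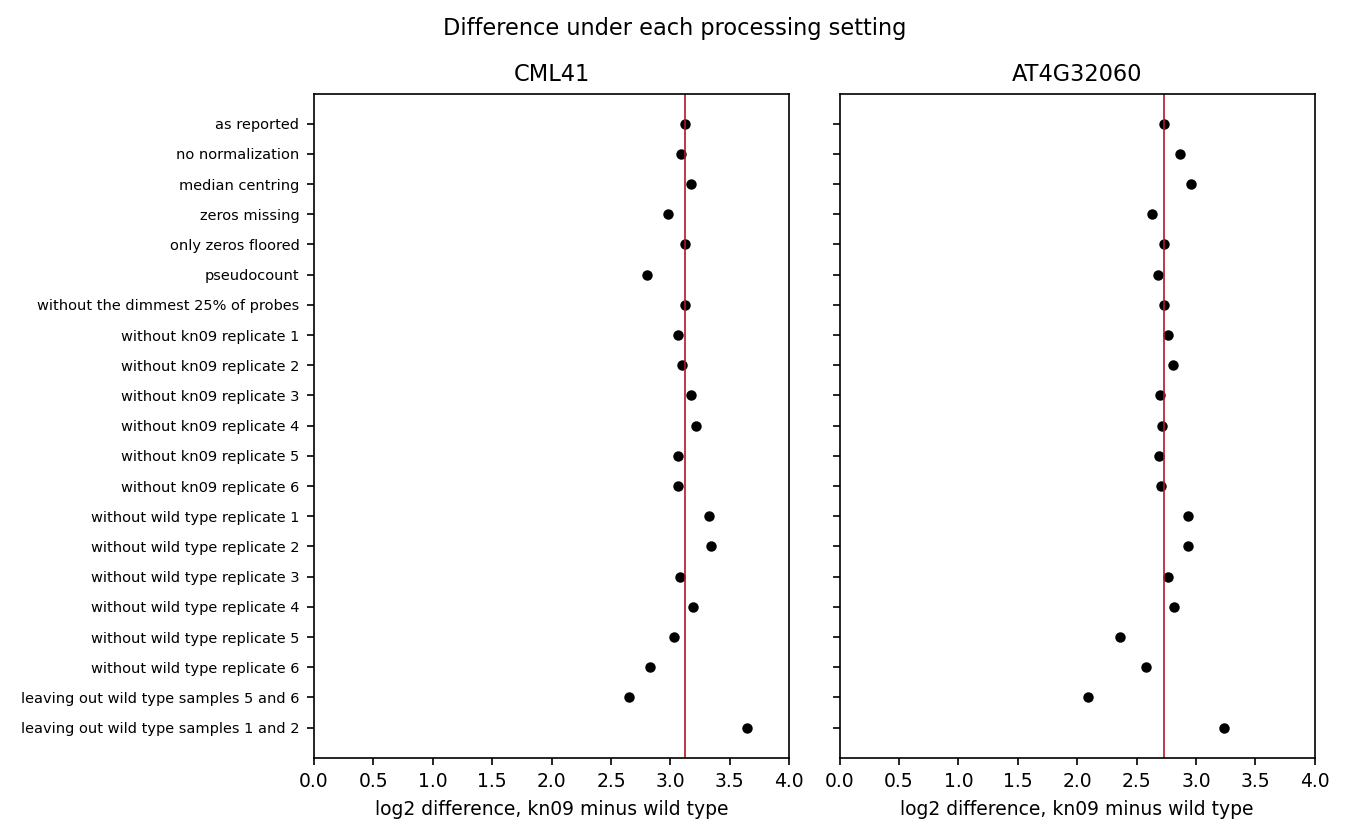
Log2 difference of CML41 (left panel) and AT4G32060 (right panel), kn09 on proline minus wild type on glucose, under each processing setting and with samples left out; the line marks the reported value. The values run from 2.65 to 3.64 for CML41 and from 2.09 to 3.24 for AT4G32060, with both ends of both ranges set by leaving out a wild type pair.

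Sample by sample, both genes were compared within each group; the difference between the groups in this respect was not tested. Over the 6 wild type samples on glucose the normalized log2 values of CML41 and AT4G32060 had a Pearson r of 0.70, and over the 6 kn09 samples on proline of -0.08. These are descriptions: the samples come in resembling pairs, so each r rests on fewer than 6 independent points and no p is given. In wild type, samples 1 and 2 were the highest for both genes, followed by sample 4. The lowest sample was number 6 for CML41, whose samples 3 and 5 lay close together at -2.94 and -2.91, and number 5 for AT4G32060.

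**Figure D3:**
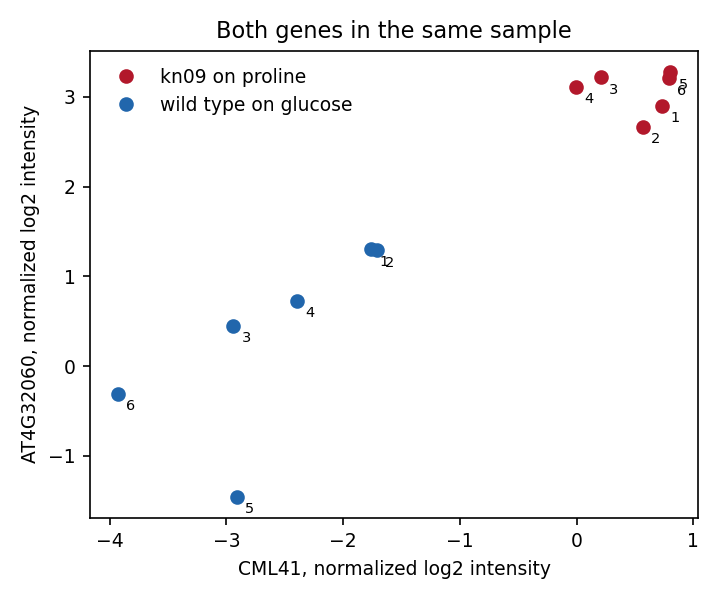
Normalized log2 intensity of CML41 (x axis) against AT4G32060 (y axis) in each sample, numbered, with kn09 on proline and wild type on glucose in separate colours. Wild type samples 1 and 2 are the highest of their group on both axes, sample 6 is lowest for CML41 and sample 5 for AT4G32060, and the kn09 samples form a compact group.

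Few other genes of calcium signalling were found by locus or name among the single-gene features. The 1877 features with no annotated gene could not be searched. The rule for this list did not catch AT4G32060 itself, so it can miss other calcium genes. A list of calcium sensors, calcium-dependent kinases, channels, pumps and exchangers, 238 genes of the gene table besides these, had 2 with a single-gene feature, CML30 and GLR2.7. Of these 2, 0 passed in limma in either direction over all features (0 also at an unadjusted p of 0.05), with a median log2 difference of -0.26. With 27.7% of all features past the threshold, a count of 0 among 2 genes lies near that background and is no result about the list. A further 4 features held a gene of the list among several genes and were not named. Lists of mitochondrial genes (83) and of genes for plasmodesmata and callose (20) were drawn from listed loci and from names in the gene table. CML41 and AT4G32060 aside, they had 0 members among the single-gene features and 0 among the features with several genes. Genes whose names lack the search words are not on these lists unless their loci were listed. The counts of 0 therefore do not mean that the array lacks genes for mitochondrial or plasmodesmal proteins. AT4G32060 is itself a gene for a mitochondrial protein, and others on the array were not searched for by function. Of the 8 loci listed for the mitochondrial uniporter and LETM proteins, 0 were annotated to a feature of either kind.

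CML30 (AT2G15680), another calmodulin-like protein, had intensities of 0.663, 0.740, 1.27, 1.05, 1.03 and 0.956 in kn09 samples 1 to 6, against 1.18, 1.16, 1.59, 1.60, 1.03 and 0.922 in wild type samples 1 to 6. The groups overlapped, with wild type samples 1, 2, 5 and 6 inside the range of the kn09 samples. Its mean was 0.954 ± 0.223 in kn09 and 1.25 ± 0.284 in wild type (SD, n = 6 each). Its log2 difference, -0.44 ± 0.21 (SE), did not pass in limma (adjusted p of 0.139). Its wild type pairs were ordered otherwise than those of CML41 and AT4G32060, with samples 3 and 4 highest. Wild type samples 5 and 6 were its lowest 2, as for CML41 and AT4G32060 and in 26.3% of all features.

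GLR2.7 (AT2G29120) belongs to the glutamate receptor-like family of cation channels. Its intensities were 0.149, 0.290, 0.124, 0.416, 0.333 and 0.397 in kn09 samples 1 to 6, against 0.287, 0.313, 0.546, 0.348, 0.169 and 0.143 in wild type samples 1 to 6. The groups covered nearly the same range. Within wild type, samples 5 and 6 were the lowest 2 for this gene too, as in 26.3% of all features. The mean was 0.285 ± 0.124 in kn09 and 0.301 ± 0.145 in wild type (SD, n = 6 each), and the log2 difference of -0.08 ± 0.33 (SE) did not pass in limma (adjusted p of 0.890). Centring the samples on their medians turned its sign.

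**Figure D4:**
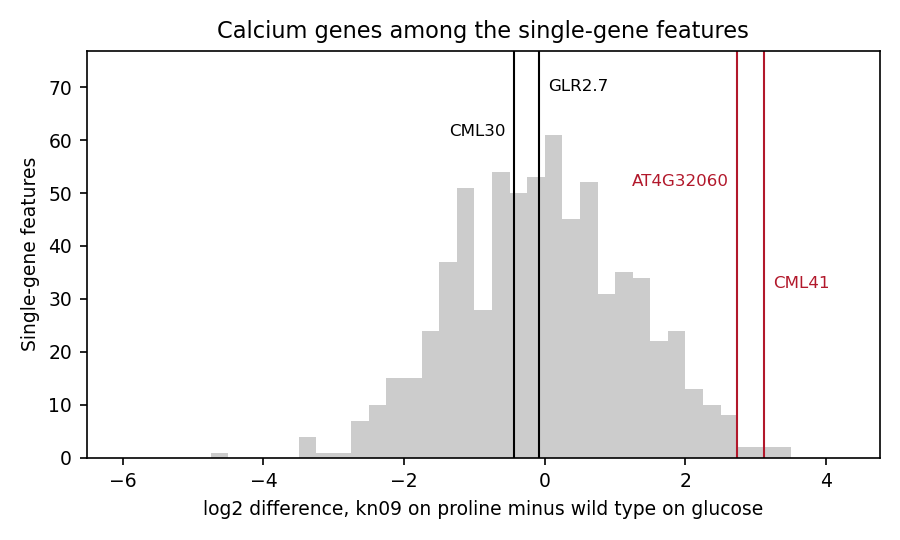
Histogram of the log2 differences, kn09 on proline minus wild type on glucose, of the 692 single-gene features, with the 4 calcium genes marked by lines. CML41 at 3.12 and AT4G32060 at 2.73 lie in the upper tail, and CML30 at -0.44 and GLR2.7 at -0.08 near the centre.

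The single-gene features most like each gene were ranked by Pearson r of the normalized log2 values over the 12 samples. This r is set largely by the gap between the groups, and the samples share groups and pairs, so it carries no p. For CML41 they were AT1G50770 with an r of 0.97, MAMI (AT5G54110), listed in the gene table as a membrane-associated mannitol-induced protein, with 0.96, AT3G47650 with 0.95, AT5G46560 with 0.95 and AT4G25290 with 0.94. For AT4G32060 they were AT1G50770 with 0.97, AT3G44570 with 0.95, AT3G57120 with 0.94, AT5G13260 with 0.94 and CML41 itself with 0.93. Of 690 other single-gene features, 13 had an r above 0.9 with CML41 and 13 with AT4G32060, and the median r was -0.01 for both.

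AT1G50770 headed both rankings. It had intensities of 1.49, 1.67, 1.94, 2.04, 1.92 and 2.08 in kn09 samples 1 to 6, against 0.844, 0.733, 0.634, 0.892, 0.376 and 0.346 in wild type samples 1 to 6. Its groups did not overlap, and wild type samples 5 and 6 were lowest. A ranking by r over the same samples favours both traits, here and in the other genes named below. Within wild type its r was 0.88 with CML41 and 0.88 with AT4G32060, while within kn09 it was -0.51 with CML41 and 0.56 with AT4G32060.

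MAMI had values of 1.15, 1.33, 0.895, 0.969, 1.40 and 1.34 in kn09 samples 1 to 6, against 0.574, 0.545, 0.668, 0.579, 0.313 and 0.200 in wild type samples 1 to 6. Like CML41 it was lowest in samples 3 and 4 of kn09 and in samples 5 and 6 of wild type, with an r to CML41 of 0.84 within kn09 and 0.82 within wild type. AT3G47650 had the highest r to CML41 within kn09 of the 5 genes, 0.96, and 0.73 within wild type. Apart from CML41 itself, the other genes named had kn09 means 1.85 to 5.65 times their wild type means. In each case this ratio was smaller than that of the gene they resembled. AT5G13260, with the ratio of 1.85, had low intensities and overlapping groups, 0.123 to 0.230 in kn09 and 0.0317 to 0.180 in wild type.

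**Figure D5:**
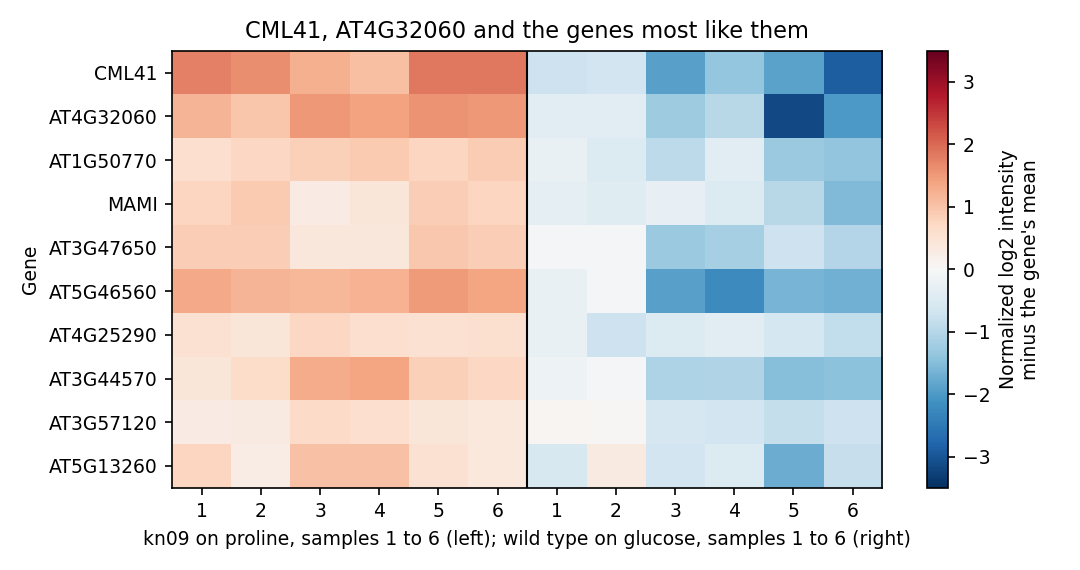
Normalized log2 intensity minus the gene's own mean over the 12 samples, for CML41, AT4G32060 and the genes most like either, with kn09 samples in the left 6 columns and wild type samples in the right 6. Red is above and blue below the gene's mean; the wild type columns differ more among themselves than the kn09 columns for CML41 and AT4G32060.

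The choice of these genes was not stable. With wild type samples 5 and 6 left out, 0 of the 5 named for CML41 and 2 of the 5 named for AT4G32060 were still among the 5 most alike, and with wild type samples 1 and 2 left out 3 and 2 of the 5 were.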

How the data were processed

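The authors deposited 1 intensity per feature and sample, scaled to a reference that is not given in the sources used here, as are scanner, background correction and filters. Groups and sample numbers came from the titles. Features were named through GEO's platform annotation and, by Entrez identifier, the TAIR10.1 gene table (690 of 692 matched); no coordinates or sequences are printed. Values under the 1st percentile of a sample's positive values were set to that percentile, log2 was taken, and samples were quantile normalized. Groups were compared with limma 3.58.1 under R 4.3.3 (lmFit, eBayes, group as only term, two-sided, Benjamini-Hochberg over all 3439 features at 0.05). This fit was tested on simulated data with independent samples. The simulation held no resembling pairs, so it does not cover their effect on the number of features that passed. CML41, AT4G32060 and the gene lists were chosen with earlier results of these data known. Named were both genes, the measured genes of the calcium list and the 5 single-gene features most like each gene. Means and SDs were taken over intensities as deposited by the authors. Alternatives were other normalizations, other treatments of low values, a filter on dim features, blocks, pair means and samples left out; leaving out a wild type pair was chosen after seeing the data.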

Additional observations from a re-analysis of the deposited data

How the results depend on the processing

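The log2 difference kept its sign under every setting tried, from 2.65 to 3.64 for CML41 and from 2.09 to 3.24 for AT4G32060; without single samples it ran from 2.82 to 3.34 for CML41 and from 2.36 to 2.93 for AT4G32060. No call on CML30 or GLR2.7 was made under any setting, with adjusted p of 0.0764 to 0.459 for CML30 and 0.619 to 0.989 for GLR2.7. The difference of GLR2.7 ran from -0.22 to 0.12 without single samples and turned to 0.0079 with median centring, 0.05 without kn09 sample 1, 0.12 without kn09 sample 3 and 0.08 without wild type sample 3. Of all features 954 passed, 835 with the replicate block, 624 with the sample pairs as a random block (346 higher, 278 lower), 213 on pair means (87 higher, 126 lower), and 794 to 1023 without single samples. Of the 5 genes named as most like CML41, 3 were named again with no normalization and 3 with median centring, and likewise 3 and 3 for AT4G32060; 3 to 5 were named again without single samples for either gene. With wild type samples 5 and 6 left out these counts were 0 for CML41 and 2 for AT4G32060, and with wild type samples 1 and 2 left out 3 and 2. The cause was not tested. Deviations of same-numbered samples from their group means correlated at 0.03 to 0.10, and each of the 6 correlated best with its own number. Whether same-numbered samples shared more than a number is not given in the labels and was not tested. The likeness ranking was not run under the blocks or pair means. CML41 and AT4G32060 aside, the name-based mitochondrial and plasmodesmata lists had no member annotated to a feature and so none to test. How far above background the features lay is not known from intensities alone.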
